A study of Mus with 6 samples.

Results

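The miR-23/27/24 clusters are a pair of paralogous miRNA loci of the mouse, here followed through 9 mature miRNAs counted in adipocytes. The 9 were taken by name (mmu-miR-23a-3p, mmu-miR-23b-3p, mmu-miR-24-3p, mmu-miR-24-1-5p, mmu-miR-24-2-5p, mmu-miR-27a-3p, mmu-miR-27a-5p, mmu-miR-27b-3p and mmu-miR-27b-5p, the species prefix being dropped from here on) from 929 known miRNA names that all 6 count tables share. All 9 had reads in every library and passed the filter on low counts. The libraries came from adipocytes of wild-type (WT) C57BL/6 mice, 3 from a group labelled chronic intermittent hypoxia (CIH), which is repeated lowering and restoring of oxygen, and 3 from a control group. CIH is the only stated difference between the groups. The labels give neither age nor sex, nor whether animals or isolated cells were exposed, and nothing says that the libraries of a group came from separate animals or cultures. The p-values below therefore rest on the spread among libraries, and that spread may be technical.

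Each cluster encodes 1 miRNA of each kind in the order miR-23, miR-27, miR-24, and each hairpin precursor is cut into a 5p and a 3p arm, of which usually only 1 is kept in quantity. miR-23a and miR-23b share the seed by which a miRNA recognises its targets, as do miR-27a and miR-27b, and members of each pair differ only in their 3′ part. The miR-24 hairpins yield the same 3p miRNA and different 5p arms, so miR-24-3p cannot be assigned to a cluster. In fat, miR-27 is known as a brake on adipocyte differentiation that acts on PPAR gamma, the master regulator of that process, and on genes of brown fat such as Prdm16. miR-23 and miR-27 are also known for roles in blood vessel growth, and miRNAs of these clusters have been reported to respond to low oxygen in cancer cell lines.

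On the GRCm38 build the a cluster lies on chromosome 8, with Mir23a at 84208518 to 84208592, Mir27a at 84208672 to 84208758 and Mir24-2 at 84208815 to 84208921. Its 3 precursors span 404 bases, overlap no protein-coding gene of the RefSeq table used, and have Zswim4, from position 84210942, as the nearest one. The b cluster lies on chromosome 13 within the span of Aopep, which encodes an aminopeptidase. There Mir23b is at 63300484 to 63300557, Mir27b at 63300712 to 63300784 and Mir24-1 at 63301208 to 63301275, a span of 792 bases. Gaps between neighbouring precursors are 79 and 56 bases in the a cluster and 154 and 423 bases in the b cluster.

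The miR-24 counts carry a limit of their own. The precursors Mir3074-2 (84208825 to 84208907) and Mir3074-1 (63301199 to 63301283) overlap Mir24-2 and Mir24-1, and are known to lie on the opposite strand. In every library miR-3074-5p was listed with 99.4% to 99.97% of the count of miR-24-3p, and miR-3074-2-3p with 98.6% to 99.7% of the count of miR-24-2-5p. For miR-3074-1-3p and miR-24-1-5p, both rare, the share ran from 37.5% to 100%. Nothing in the labels says that the counting used strand, so the reads behind a miR-24 name and its miR-3074 partner cannot be told apart. Leaving out the miR-3074 names changed no call among the 9 in any of the 4 edgeR comparisons given here.

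Levels are given as CPM, counts scaled to the same total in every library, by the sum of its table. A read covers a whole mature miRNA, so no length scaling applies, but cloning preferences are known to differ between miRNAs. Totals ran from 7336758 to 11264151 counts in CIH and from 6291101 to 9720485 in control. A count of 3, taken as the floor, is then 0.266 to 0.409 CPM in CIH and 0.309 to 0.477 CPM in control, covering counting error only. The libraries numbered 3 stood apart from the other 4 in both groups and list another set of names. Control library 3 needed a TMM factor (edgeR's correction for library composition) of 0.635 against 1.11 in CIH library 3. TMM therefore lowers every log2 difference of that pair by 0.80, and where scaling decides a direction both values are given.

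The 9 miRNAs together took 2.73%, 1.79% and 1.33% of CIH libraries 1, 2 and 3, against 2.28%, 1.97% and 0.461% of control libraries 1, 2 and 3. At these depths counting error is small, with a Wilson 95% interval of 2.72% to 2.74% for CIH library 1. Control library 3 held the smallest share by far, and the other 5 overlapped between the groups. Summed levels were 19495 ± 7144 CPM in CIH, against 15691 ± 9721 CPM in control (± SD, n = 3 each; exact permutation p = 0.7, two-sided). Without control library 3 the difference, 3804 CPM with all libraries, turned to -1738 CPM, and without CIH library 1 to -93.1 CPM. The 4 members found only in the a cluster summed to 6544 ± 1649 CPM in CIH, against 6382 ± 4718 CPM in control (exact permutation p = 1). The 4 found only in the b cluster summed to 2975 ± 656 CPM in CIH, against 2581 ± 767 CPM in control (exact permutation p = 0.5). Within the libraries numbered 1 and 2 these differences were -1541 and -294 CPM. By seed, miR-23a-3p and miR-23b-3p summed to 1348 ± 316 CPM in CIH, against 845 ± 511 CPM in control (exact permutation p = 0.2). miR-27a-3p and miR-27b-3p summed to 6915 ± 1253 CPM in CIH, against 7238 ± 4631 CPM in control (exact permutation p = 1). Adjusted over the 6 sums compared, every p was 1, and by total counts control library 3 was the lowest in each sum. After TMM scaling it was still the lowest in every sum but that of the b-cluster members, where control library 2 was. That sum then averaged 2781 ± 432 CPM in CIH, against 2674 ± 362 CPM in control, a difference of 107 CPM beside 394 CPM by total counts.

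The 3p arms of all 3 kinds dominated. The 5 miRNAs of that arm made up 95.9%, 94.3% and 87.8% of the family's counts in CIH libraries 1, 2 and 3, against 95.1%, 94.8% and 89.2% in control libraries 1, 2 and 3. The libraries numbered 3 had the lowest shares in both groups. The remainder was mostly miR-24-2-5p.

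**Figure D1:**
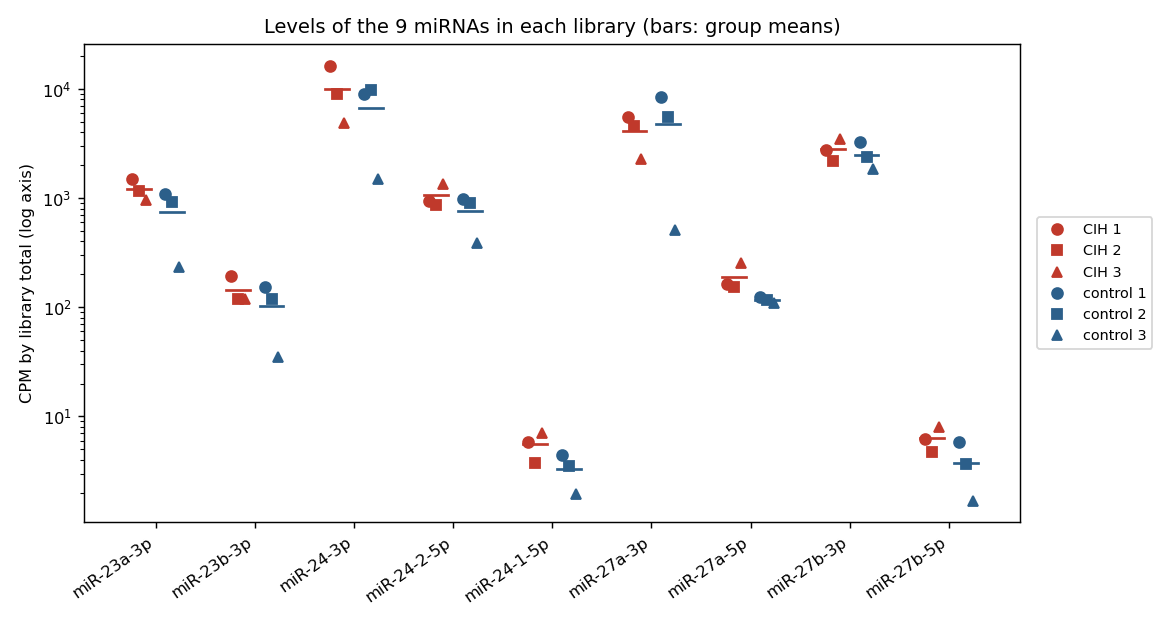
Level of each of the 9 miRNAs in CPM (scaled by the library total, log axis), with CIH libraries in red to the left of control libraries in blue. Symbols mark the library number and bars the group means. miR-27a-3p spans a 16.3-fold range over the 6 libraries and miR-27b-3p a 1.92-fold range.

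miR-24-3p, reported to act on genes of the cell cycle and apoptosis, was the most abundant member in 5 of the 6 libraries, ranking between 10th and 31st of all names. It stood at 16233, 8880.4 and 4813 CPM in CIH libraries 1, 2 and 3, against 8867, 9815 and 1503 CPM in control libraries 1, 2 and 3. CIH library 1 was the highest and control library 3 the lowest, while CIH library 2 lay between the control libraries. After TMM scaling CIH library 2, at 9482 CPM, lay above every control library, the highest of which was control library 2 at 8913 CPM. edgeR's quasi-likelihood test on all 6 libraries gave a log2 difference of 0.58 (SE 0.66, adjusted p = 0.934). Without CIH library 1 or control library 3 it was 0.20 and 0.21, and without control library 2 it was 0.97.

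miR-27a-3p is the main miR-27 of the a cluster. It stood at 5481, 4549.6 and 2254 CPM in CIH libraries 1, 2 and 3, against 8316, 5472 and 512 CPM in control libraries 1, 2 and 3. It was lower in CIH in the pairs numbered 1 and 2 and higher in the pair numbered 3. Its log2 difference over all 6 libraries was -0.12 (SE 0.77, adjusted p = 0.988, edgeR). That sign turned with the replicate number as a block (0.24) and without control library 1 (0.45), control library 2 (0.05) or CIH library 3 (0.21).

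miR-27b-3p, its paralogue, had the narrowest range of the 9. It stood at 2763, 2197 and 3501 CPM in CIH libraries 1, 2 and 3, against 3226, 2363 and 1825 CPM in control libraries 1, 2 and 3. The groups overlapped, and edgeR gave a log2 difference of 0.04 (SE 0.40, adjusted p = 0.990). With DESeq2's size factors it was -0.06. In control library 3 miR-27b-3p was the most abundant of the 9. By total counts all 9 had their lowest level in that library. After TMM scaling 7 did, while miR-27b-3p (2872 CPM) and miR-27a-5p were there at their second highest level of the 6 libraries.

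miR-23a-3p and miR-23b-3p are known in human cells as repressors of the enzyme glutaminase. miR-23a-3p stood at 1501, 1166 and 949.6 CPM in CIH libraries 1, 2 and 3, against 1083, 914 and 232 CPM in control libraries 1, 2 and 3. Every CIH library was above its control of the same number, but CIH library 3 lay below control library 1. The log2 difference was 0.70 (SE 0.48, adjusted p = 0.899, edgeR), and 0.41 without control library 3. miR-23b-3p followed at a lower level, with 191, 118 and 119.6 CPM in CIH libraries 1, 2 and 3, against 154, 118 and 35.1 CPM in control libraries 1, 2 and 3. Its log2 difference was 0.46 (SE 0.48, adjusted p = 0.934). It ran from 0.20 without control library 3 to 0.76 without control library 1.

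The 5p arms are the strands usually discarded. miR-24-2-5p, from the a cluster, was the most abundant of them, at 944, 867 and 1352 CPM in CIH libraries 1, 2 and 3, against 986, 894 and 387 CPM in control libraries 1, 2 and 3. The pairs numbered 1 and 2 were nearly level and the pair numbered 3 was not. Its log2 difference was 0.40 (SE 0.40, adjusted p = 0.934, edgeR). Without CIH library 3 it was 0.23. miR-27a-5p stood at 164, 154 and 252 CPM in CIH libraries 1, 2 and 3, against 125, 116 and 109 CPM in control libraries 1, 2 and 3. It was the one member of 9 with every CIH library above every control library in CPM by total, a pattern that 7.46% of the 456 tested miRNAs showed. None of the 9 had every CIH library below every control library, which 3.73% of those tested showed. After TMM scaling its groups overlapped, at 143, 164 and 227 CPM in CIH libraries 1, 2 and 3, against 104, 106 and 171 CPM in control libraries 1, 2 and 3. Its log2 difference was 0.49 (SE 0.44, adjusted p = 0.934). It ran from 0.26 without CIH library 3 to 0.79 without control library 3.

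The 5p arms of the b cluster were rare. miR-27b-5p had 46, 47 and 91 counts in CIH libraries 1, 2 and 3 and 37, 36 and 14 counts in control libraries 1, 2 and 3, or 6.34 ± 1.70 CPM in CIH, against 3.76 ± 2.09 CPM in control (± SD, n = 3 each). miR-24-1-5p had 43, 38 and 80 counts in CIH and 28, 34 and 16 counts in control, or 5.58 ± 1.68 and 3.30 ± 1.27 CPM. In both, the pair numbered 3 held the highest count in CIH and the lowest in control. The CPM ranges overlapped, and after TMM scaling those of both separated, with CIH above control, as 8.11% of tested miRNAs did. Their log2 differences were 0.69 (SE 0.50) and 0.64 (SE 0.47), with an adjusted p of 0.899 for both (edgeR).

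Within the family the make-up moved with the library number. miR-24-3p took 59.5%, 49.5% and 36.3% of the family's counts in CIH libraries 1, 2 and 3, against 38.9%, 49.8% and 32.6% in control libraries 1, 2 and 3. miR-27a-3p took 20.1%, 25.4% and 17% in CIH, against 36.5%, 27.8% and 11.1% in control. miR-27b-3p took 10.1%, 12.2% and 26.4% in CIH, against 14.2%, 12% and 39.6% in control. Both libraries numbered 3 thus had the highest share of miR-27b-3p, and the control one the most. In pair 1 the miR-24-3p share was higher and the miR-27a-3p share lower in CIH, and in pair 2 both differed little.

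**Figure D2:**
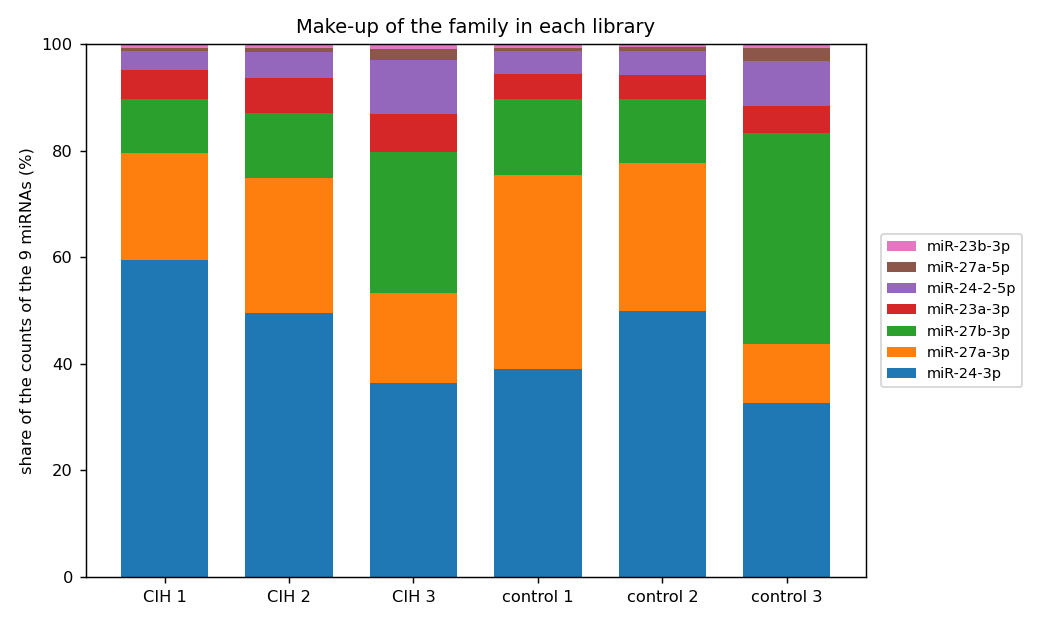
Share of the family's counts taken by each miRNA in each library, in percent, with CIH libraries left of control libraries. The 2 rarest miRNAs, each under 0.1%, are not drawn. miR-27b-3p takes 26.4% and 39.6% in the libraries numbered 3 and 10.1% to 14.2% in the other 4.

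A ratio of paralogues within a library does not depend on scaling and sets a mature miRNA of the a cluster against its counterpart of the b cluster. miR-23a-3p exceeded miR-23b-3p by 7.85, 9.91 and 7.94 times in CIH libraries 1, 2 and 3, against 7.05, 7.75 and 6.61 times in control libraries 1, 2 and 3. All CIH ratios were above all control ratios. The nearest, 7.85 in CIH library 1 and 7.75 in control library 2, rest on 1402 and 1147 counts of miR-23b-3p. The counting error of this small gap was not estimated. The mean log2 ratio was 3.09 ± 0.19 in CIH, against 2.83 ± 0.12 in control (± SD, n = 3 each), and the two-sided exact permutation p of 0.1 is the smallest that 3 libraries against 3 allow (adjusted p = 0.45 over 9 ratios). The difference of 0.26 was 0.15 without CIH library 2. Reads too short to reach the 3′ part cannot be assigned to one of the pair, and the sources used here do not say how such reads were counted.

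miR-24-2-5p exceeded miR-24-1-5p by 161 to 229 times in CIH and 199.9 to 256 times in control, with overlapping ranges (exact permutation p = 0.4). miR-27a-5p exceeded miR-27b-5p by 26.2 to 32.9 times in CIH and 21.2 to 64.1 times in control, where control library 3, with 14 counts of miR-27b-5p, gave the highest ratio (exact permutation p = 0.9). In these and the miR-23 ratio the miRNA of the a cluster had more counts than that of the b cluster in every library. How much of each precursor was made was not measured.

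The ratio of miR-27a-3p to miR-27b-3p did not keep its side. It was 1.98, 2.07 and 0.644 in CIH libraries 1, 2 and 3, against 2.58, 2.32 and 0.280 in control libraries 1, 2 and 3. The b form led in both libraries numbered 3, and the a form in the 4 libraries numbered 1 and 2. The log2 ratio averaged -1.24 in the libraries numbered 3 and 1.15 in the other 4, and the two-sided exact permutation p of 0.133 is the smallest that 2 libraries against 4 allow (adjusted p = 0.3 over 9 ratios). CIH was lower than control in pairs 1 and 2, by 0.38 and 0.16 on the log2 scale, and higher in pair 3, at 1.20. The mean difference of 0.22 (exact permutation p = 1) turned to -0.27 within the libraries numbered 1 and 2. Without control library 3 it was -0.82, without CIH library 1 it was -0.04 and without CIH library 2 it was -0.07.

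**Figure D3:**
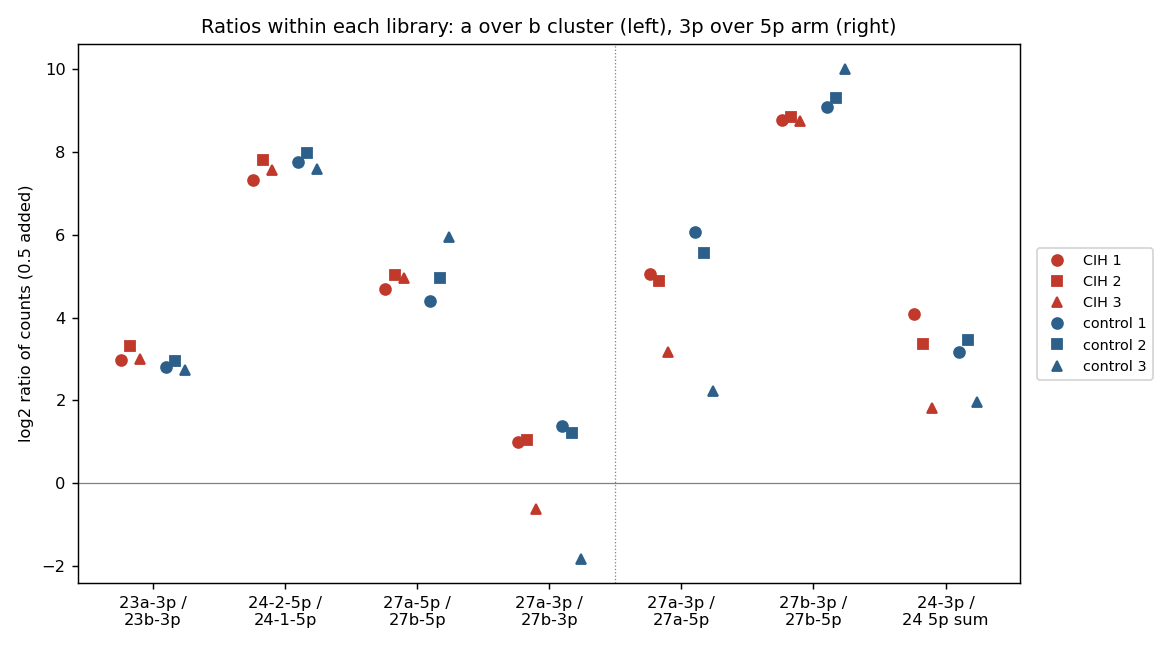
log2 ratio of counts within each library (0.5 counts added to both terms), with CIH libraries left of control libraries, for 4 ratios of the a over the b cluster and 3 ratios of the 3p over the 5p arm. The libraries numbered 3 (triangles) fall below the others for miR-27a-3p over miR-27b-3p, miR-27a-3p over miR-27a-5p and the miR-24 arms.

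The arms of one hairpin are cut from the same transcript, so their ratio does not depend on how much precursor was made. For miR-27a the 3p arm exceeded the 5p arm by 33.4, 29.6 and 8.94 times in CIH libraries 1, 2 and 3, against 66.6, 47.1 and 4.71 times in control libraries 1, 2 and 3. Within pairs 1 and 2 CIH was lower by 1.0 and 0.67 on the log2 scale, with the 5p arm higher and the 3p arm lower in CIH. In pair 3 CIH was higher, at 0.93. The mean log2 ratio was 2.70 in the libraries numbered 3 and 5.39 in the other 4 (two-sided exact permutation p = 0.133). Between the groups the mean difference was -0.25 (exact permutation p = 0.8). It turned to 0.36 without CIH library 3, to 0.47 without control library 1 and to 0.22 without control library 2.

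For miR-24 the ratio pools the hairpins of both clusters, so unlike that of a single hairpin it can also move with the balance of the clusters. The 3p arm exceeded the summed 5p arms by 17.1, 10.2 and 3.54 times in CIH libraries 1, 2 and 3, against 8.95, 10.9 and 3.86 times in control libraries 1, 2 and 3. Both libraries numbered 3 were again the lowest, with a mean log2 ratio of 1.89 against 3.51 in the other 4 (two-sided exact permutation p = 0.133). The difference between the groups was 0.24 (exact permutation p = 0.8), and turned to -0.27 without CIH library 1 and to -0.22 without control library 3.

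For miR-27b the 3p arm exceeded the 5p arm by 441, 469 and 433 times in CIH libraries 1, 2 and 3, against 548, 638 and 1077 times in control libraries 1, 2 and 3. All CIH ratios were below all control ratios, and the mean log2 ratio was 8.79 ± 0.06 in CIH, against 9.47 ± 0.49 in control (± SD, n = 3 each; exact permutation p = 0.1, two-sided, and 0.45 after adjustment over 9 ratios). All these ratios rest on few counts of the 5p arm. The nearest across the groups, 469 in CIH library 2 and 548 in control library 1, rest on 47 and 37 counts. Their counting error was not estimated. The highest value, in control library 3, rests on 14 counts. The difference of -0.67 was -0.40 without that library. With pairs 1 and 2 alone it was -0.38. The libraries numbered 3 did not both fall below the others here. The 5p arms of miR-23a and miR-23b, which are not among the 9, had 0 to 4 and 0 to 9 counts. That is at or near the floor of 3 counts, so no ratio is given, and with 0.5 counts added the exact permutation p was 0.8 and 0.6.

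How alike the members ran was measured as the root mean square difference between their log2 CPM, each centred on its own mean, over the 6 libraries. Of 36 pairs the closest was miR-23a-3p with miR-23b-3p, at 0.18. miR-24-1-5p followed with miR-27b-5p (0.19) and with miR-24-2-5p (0.21), although these come from different clusters in the second case. The least alike pair was miR-27a-3p with its own 5p arm (1.35), and the next was miR-27a-3p with miR-27b-3p (1.18). The closest pair thus shares a seed, and the least alike pair a hairpin. These values describe 6 libraries that share depth and composition, and carry no test.

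Among 124 other miRNAs with a mean of at least 100 CPM, those whose pattern was most like the sum of the 5 members from the 3p arm were miR-10b-3p (0.13), miR-191-5p (0.19) and miR-501-3p (0.19). miR-191-5p, often used as a reference miRNA in expression assays, stood at 3080, 2795 and 1568 CPM in CIH libraries 1, 2 and 3, against 3261, 2956 and 497 CPM in control libraries 1, 2 and 3. Like the summed members it was lowest in control library 3.

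Over all 6 libraries edgeR called 0 of the 9 members and 0% of the 456 tested miRNAs at an adjusted p under 0.05. At an unadjusted p under 0.05 there were 0 members and 23 miRNAs with edgeR, and 0 members and 37 miRNAs with DESeq2, which also called 0. The members' median log2 difference was 0.49, beside 0.04 over all tested, and 8 of 9 were higher in CIH, beside 53.5% of all. With DESeq2's size factors 7 of 9 were higher, because miR-27b-3p turned.

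Within the 4 libraries numbered 1 and 2, edgeR called 0 of the 9 members, beside 9.37% of 459 tested miRNAs. The 3 members with an unadjusted p under 0.05, where 21.6% of all tested had one, were miR-23a-3p, miR-24-3p and miR-27a-5p. miR-23a-3p had a log2 difference of 0.55 (SE 0.21, adjusted p = 0.0932), miR-24-3p of 0.53 (SE 0.22, adjusted p = 0.132) and miR-27a-5p of 0.55 (SE 0.24, adjusted p = 0.167). DESeq2 also called 0 of the 9, with 2 members at an unadjusted p under 0.05, beside 16.1% of all tested. With total counts as the scaling in edgeR the 3 log2 differences were 0.42, 0.43 and 0.40. There 0 members had such a p, beside 18.5% of all tested.

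In these 4 libraries miR-23a-3p and miR-27a-5p had both CIH libraries above both controls in CPM by total, a pattern of 17.4% of the tested miRNAs. The reverse pattern, found for 32% of those tested, was seen in 0 of the 9. After TMM scaling of the 4 libraries 5 members had CIH above control, as 26.4% of those tested did. These were miR-23a-3p, miR-24-3p, miR-24-1-5p, miR-27a-5p and miR-27b-5p. miR-27a-3p then had both CIH libraries below both controls, as did 22.4% of those tested. It also had a lower fitted value in CIH, at -0.31 (SE 0.21, adjusted p = 0.444), and miR-27b-3p was level, at -0.03 (SE 0.21, adjusted p = 0.950). The sign of miR-27b-3p turned without control library 1 (0.13) or CIH library 2 (0.02). The median of the 9 was 0.35, beside -0.03 over all tested. Leaving out CIH library 2 gave 2 calls, miR-24-3p at 0.81 (adjusted p = 0.00570) and miR-23a-3p at 0.62 (adjusted p = 0.0214), beside 18.6% of 489 tested miRNAs. Leaving out any other library gave 0. miR-24-3p was then at 0.21 without CIH library 1 (adjusted p = 0.643), 0.39 without control library 1 (adjusted p = 0.651) and 0.75 without control library 2 (adjusted p = 0.102), and miR-23a-3p between 0.51 and 0.61. A library left alone in its group is assumed to vary like those of the other group.

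**Figure D4:**
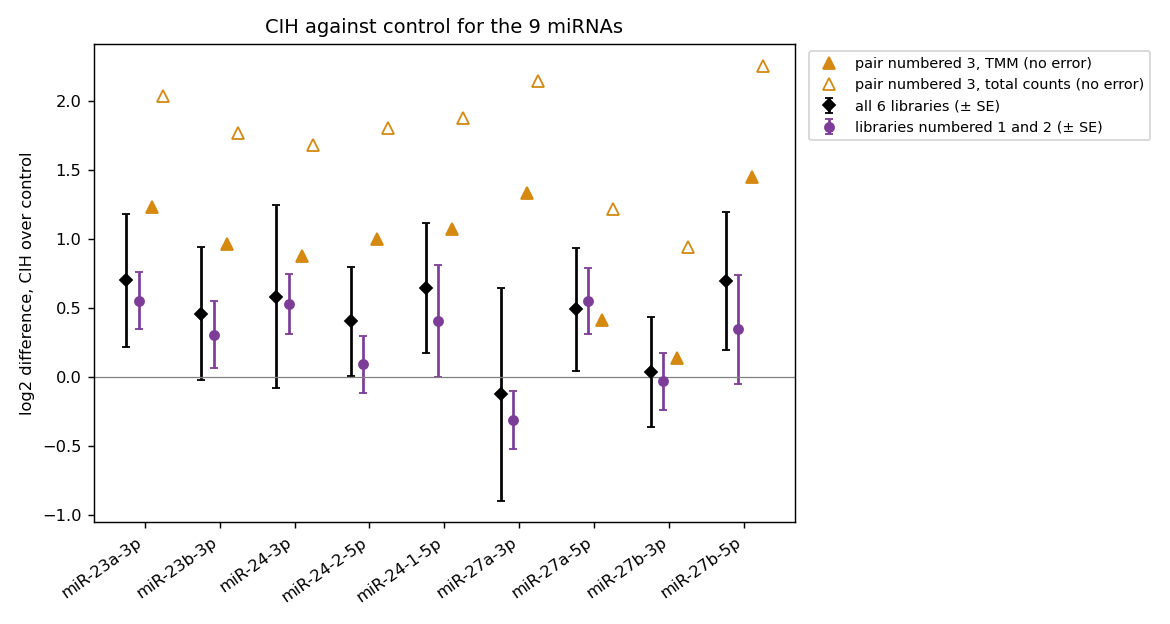
log2 difference of CIH over control for each miRNA, from edgeR over all 6 libraries and over the libraries numbered 1 and 2 (bars are ± SE), and in the pair numbered 3 after TMM scaling (filled triangles) and by total counts (open triangles), which has no error of its own. The pair numbered 3 lies above 0 for all 9 under both scalings.

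In the pair numbered 3 all 9 members were higher in CIH under both scalings. With TMM the log2 differences ran from 0.14 for miR-27b-3p to 1.45 for miR-27b-5p, with a median of 1.0, beside a median of 0.04 over the 456 tested. By total counts they ran from 0.94 to 2.25, and the median of all tested was 0.85. miR-27a-3p, at 4.41 times its control level by total counts, stood at 1.34 after TMM scaling. With 1 library per group this pair gives no spread and no p-value. Between the libraries numbered 2, 8 members were higher in CIH with TMM and 4 by total counts. Between those numbered 1, 6 were higher under both scalings. With TMM 53.7% and 48.5% of all tested were higher in CIH in these comparisons.

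The effect of CIH was also compared between the pair numbered 3 and the libraries numbered 1 and 2, as an interaction in edgeR that assumes the single libraries of that pair vary like the others. miR-27a-3p was the 1 member called, with a difference of 1.64 (SE 0.37, adjusted p = 0.000883), beside 30.3% of 456 tested miRNAs. It stayed called under both other scalings and without each of the 4 libraries numbered 1 and 2. For miR-24-2-5p the difference was 0.90 (SE 0.36, adjusted p = 0.0554), which was called without CIH library 1 (0.95, adjusted p = 0.0352, beside 24.2% of all) and without CIH library 2 (1.02, adjusted p = 0.0161, beside 34.9% of all). By total counts miR-24-2-5p (1.86), miR-23a-3p (1.62) and miR-23b-3p (1.58) were called as well, beside 34.6% of all tested. These values stand on a median of 1.0 over all tested by total counts, against 0.06 with TMM. The share of 1 in 9 members with TMM lies below the background.

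Averaged over the groups, miR-24-3p and miR-27a-3p were lower in the libraries numbered 3 than in the other 4, with group in the model. The log2 differences were -1.61 (SE 0.32, adjusted p = 0.0177) for miR-24-3p and -1.99 (SE 0.48, adjusted p = 0.0281) for miR-27a-3p, beside calls for 25% of 456 miRNAs (edgeR). Both had their CPM in the libraries numbered 3 below every other library, as 32.5% of tested miRNAs did. Neither was called when any 1 of the 4 libraries numbered 1 and 2 was left out (edgeR adjusted p from 0.0549 to 0.0803). Such fits had higher adjusted p beyond the members. Without CIH library 2 the smallest over all 470 tested was 0.0297, against 0.00256 with all 6 libraries (edgeR). The differences in the 4 fits were -1.47 to -1.76 for miR-24-3p and -1.81 to -2.17 for miR-27a-3p. Both stayed called without CIH library 3, at -1.71 and -2.81, beside 47.5% of all tested. Both also stayed called without control library 3, at -1.42 and -1.22, beside 52.3% of all tested. The miR-27a-3p difference thus varied with the group, as in the interaction. By total counts miR-24-3p alone was called, beside 13.2% of all tested. What distinguishes the libraries numbered 3 is not stated in the labels beyond the number.

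Markers of other cell types differed between the libraries, and their part in the results was not tested. In bulk RNA, fewer cells of a type and less RNA per cell cannot be told apart. The endothelial miR-126a arms, both detected in every library, summed to 73.1 to 104 CPM in CIH and 33.8 to 137 CPM in control, with control library 3 the lowest. All 3 leukocyte miRNAs were at 0 in at least 1 library, and their sum ran from 0.178 to 1.77 CPM in CIH and from 0 to 3.18 CPM in control. Of the 5 stromal miRNAs all were detected, summing to 101869 to 121813 CPM in CIH and 63644 to 147332 CPM in control, again lowest in control library 3. Most of that sum was miR-143-3p, at 55147 CPM in CIH library 3, against 57127 CPM in control library 3. The other stromal miRNAs differed in that pair. miR-199a-3p stood at 42469 CPM in CIH library 3, against 3220 to 10349 CPM in the other 5 libraries. miR-199a-5p stood at 20225 CPM there, against 2040.4 to 4771 CPM, and miR-214-3p at 2759 CPM, against 126 to 589 CPM. miR-145a-5p stood at 1213 CPM there, against 440.2 to 687 CPM. CIH library 3 was the highest for these 4, in the pair where all 9 members were higher in CIH. By total counts the members miR-24-3p and miR-27a-3p were in CIH library 3 below every library numbered 1 and 2. miR-24-1-5p, miR-24-2-5p, miR-27a-5p, miR-27b-3p and miR-27b-5p were at their highest there. Any link was not tested. Muscle miRNAs summed to 11.6 to 38.7 CPM in CIH and 12.6 to 111 CPM in control, and epithelial ones to 18.6 to 169.6 CPM in CIH and 76.3 to 409 CPM in control. Erythroid miRNAs summed to 3.28 to 106 CPM in CIH and 8.35 to 129 CPM in control, and the hepatocyte miRNA ranged from 2.09 to 5.59 CPM in CIH and from 2.16 to 4.12 CPM in control.

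No miRNA defines adipocytes by itself. Of the adipocyte-enriched pair, miR-378a-3p, which is encoded in the metabolic regulator gene Ppargc1b, stood at 29025, 25835 and 5624 CPM in CIH libraries 1, 2 and 3, against 43593, 38659.9 and 38662 CPM in control libraries 1, 2 and 3. miR-103-3p stood at 8686, 8919 and 6596 CPM in CIH libraries 1, 2 and 3, against 11957, 13752 and 7712 CPM in control libraries 1, 2 and 3. Both were present in every library. miR-378a-3p stood lower in all 3 CIH libraries than in all 3 control libraries, as 3.73% of the 456 tested miRNAs did. The ranges of miR-103-3p overlapped.

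miR-27 belongs to a wider set of miRNAs reported to restrain adipocyte differentiation. Of 11 others on such a list, 9 were tested in the libraries numbered 1 and 2. There 3 were called higher in CIH, beside 4.14% of all tested, and 0 were called lower. No other of the 9 had a log2 difference above 0, and the median was -0.20, beside -0.03 over all tested. The list was chosen with earlier results of these data known, so the count of calls is not independent of them. The 3 called were miR-155-5p (0.76, adjusted p = 0.0340), miR-221-3p (1.18, adjusted p = 0.000216) and miR-222-3p (1.14, adjusted p = 0.000723, edgeR). Over all 6 libraries 8 were tested and 0 were called. Against these, miR-27a-3p and miR-27b-3p had values of -0.31 and -0.03 in the libraries numbered 1 and 2.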

How the data were processed

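Small RNA libraries of 3 CIH and 3 control samples were read from the deposited tables of whole-number counts per mature miRNA, 1 table a library. The headers of 3 tables say FPKM, but the values are whole numbers with a different total in each library. GRCm38, DESeq 1.8.3 and featureCounts 1.5.0-p3 appear in the submitters' processing notes without a stated role. Which aligner and miRBase release were used, and how reads with several matches were counted, is not given in the sources used here. Mature sequences were not used here.

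Counts of the 929 shared known names were tested with edgeR 4.0.16 in R 4.3.3 (robust quasi-likelihood, TMM, filterByExpr, Benjamini-Hochberg at 0.05), with group as the only term. DESeq2 1.42.0 was an alternative. Apart from the fits without the miR-3074 names, each fit ran on the whole table of shared names rather than on the members alone. Tests on simulated data did not cover every fit given here, nor the permutation tests, and their results are not given. Log2 ratios used 0.5 added counts, and ratios and sums were compared with two-sided exact permutation tests (scipy 1.17.1). Sums and ratios were adjusted within each kind. Samples were grouped by title.

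Same-numbered libraries correlated in their deviations from the group means at 0.31, 0.34 and 0.41. The number, taken from the titles, was treated as a pair in the blocked fit. Those group means include the libraries that stood apart from the ones numbered 1 and 2. Within the libraries numbered 1 and 2 this correlation was 0.047. Matching of these libraries by number is therefore not shown, and comparisons of their same-numbered libraries are descriptive only. Libraries of one group differed beyond counting noise (at least 135 for chi-square over its degrees of freedom), so none was merged.

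The members, lists and tests were chosen with earlier results of these data known. Named miRNAs were the 9 members, list members that were called, the 3 most alike others and the markers. The comparison of libraries numbered 3 with the others, the fits without miR-3074 names and the leave-one-out values of the interaction were added after the values were seen. RefSeq's annotation of GRCm38.p6 gave the positions. Library totals and floors are given with the results.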

Additional observations from a re-analysis of the deposited data

Results flagged for a closer look

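The effect of CIH on miR-27a-3p differed between the pair numbered 3 and the libraries numbered 1 and 2, by 1.64 on the log2 scale (edgeR interaction, adjusted p = 0.000883). The same comparison called 30.3% of 456 tested miRNAs. With 1 library per group, the pair numbered 3 has no spread of its own. miR-27a-3p was higher in CIH in 1 of 3 numbered pairs. The ratio of miR-27a-3p to miR-27b-3p was higher in CIH in the pair numbered 3, at a log2 difference of 1.20, and lower in both other pairs. The ratio of miR-27a-3p to miR-27a-5p was likewise higher in CIH in the pair numbered 3, at 0.93, and lower in both other pairs. For these ratios the difference between the pairs was not tested. Groups of 3 libraries are too small for the check on single outlying samples.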

How the results depend on the processing

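The count of members called stayed at 0 over all 6 libraries under every alternative, the replicate block included, under which miR-27a-3p turned to 0.24. The set as a term gave miR-27a-3p 0.23, and DESeq2's size factors and its Wald test gave miR-27b-3p -0.061 each. Within the libraries numbered 1 and 2 the count ran from 0 to 2 when each library was left out, and miR-24-2-5p turned to -0.055 by total counts. By total counts the interaction called 4 members and the comparison of the libraries numbered 3 called 1, beside 34.6% and 13.2% of all tested. In the comparison of the libraries numbered 3, leaving out each library moved miR-24-3p between -1.76 and -1.42 and miR-27a-3p between -2.81 and -1.22. There 0 members were called when a library numbered 1 or 2 was left out. In the interaction, leaving out a library moved miR-27a-3p between 1.53 and 1.85. For the interaction this could be done only for the libraries numbered 1 and 2.

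Leaving out each library moved the log2 difference over all 6 from -0.59 to 0.45 for miR-27a-3p and from -0.12 to 0.18 for miR-27b-3p, and within the libraries numbered 1 and 2 from -0.11 to 0.13 for miR-27b-3p. The log2 ratios moved from -0.82 to 0.78 (miR-27a-3p over miR-27b-3p), -0.56 to 0.22 (miR-27a-5p over miR-27b-5p), -1.44 to 0.47 (miR-27a arms), -0.27 to 0.87 (miR-24 arms), -0.49 to 1.08 (miR-23a arms) and -0.17 to 1.86 (miR-23b arms). Summed levels moved from -1738 to 7342 CPM (all 9), -2773 to 1829 CPM (both miR-27 3p miRNAs) and -2409 to 2226 CPM (a-cluster members). Within the libraries numbered 1 and 2 alone, values turned to -0.27 for miR-27a-3p over miR-27b-3p, 0.19 for miR-27a-5p over miR-27b-5p, -0.43 for the miR-23a arms, -1541 CPM for the a-cluster members and -294 CPM for the b-cluster members. The causes were not tested. For the cluster ratios the paired mean equals the difference of the group means by construction (0.26 for miR-23), so the block could not move it. The exact permutation p for miR-23 was 0.25 with the block, the smallest that 3 pairs allow, against 0.1 without it. In the fit of the libraries numbered 1 and 2, where the numbers do not pair the libraries, the block changed no call among the 9. Depth limits miR-27b-5p and miR-24-1-5p, with as few as 14 and 16 counts.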
